A study of Homo sapiens with 4 samples.

Results

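The 7 genes described here are MT-ND1, MT-ND2, MT-ND3, MT-ND4, MT-ND4L, MT-ND5 and MT-ND6, the subunits of respiratory complex I that are encoded by mitochondrial DNA (mtDNA). They were taken by gene symbol, and they make up 7 of the 26726 genes with a row in the deposited count table. RNA-seq had been performed on HN12 cells, a human head and neck squamous cell carcinoma (HNSCC) line. The libraries comprised 2 ATAD3A KO libraries (KO replicates 1 and 2) and 2 libraries of the parental line (WT replicates 1 and 2), and the comparison asks how RNA levels differ once ATAD3A is lost. ATAD3A is an ATPase of the mitochondrial inner membrane that is known to contact the mtDNA nucleoid. The KO cells carried a CRISPR/Cas9 edit and were grown from single-cell clones. Which clone gave each KO library is not stated, so an effect of the edit and an effect of cloning cannot be told apart.

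Complex I takes electrons from NADH, passes them to ubiquinone and pumps protons across the inner membrane. Its peripheral arm, where NADH is oxidised, is built from nuclear-encoded subunits, whereas all the mtDNA-encoded subunits lie in the membrane arm. Human mtDNA is transcribed from both strands into long precursor RNAs that are then cut, largely at the tRNAs that stand between the messages. MT-ND1, MT-ND2, MT-ND3, MT-ND4L, MT-ND4 and MT-ND5 are released from the heavy-strand precursor, and MT-ND6 is the only mRNA of the light-strand precursor.

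The ends of the messages show how closely they are packed and how the light-strand message differs in base composition. The last 30 bases of each gene are given below in the sense of the mRNA, 5′ to 3′, from GENCODE release 29 on GRCh38. Capitals mark the final codon, or the 1 or 2 bases of an incomplete stop codon that is completed by polyadenylation.
MT-ND1: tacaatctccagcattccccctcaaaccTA
MT-ND2: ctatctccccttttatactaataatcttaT
MT-ND3: gactacaaaaaggattagactgaaccgaaT
MT-ND4L: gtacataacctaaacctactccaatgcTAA
MT-ND4: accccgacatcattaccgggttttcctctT
MT-ND5: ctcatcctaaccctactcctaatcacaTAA
MT-ND6: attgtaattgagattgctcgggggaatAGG

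MT-ND1 (chrM:3307-4262), MT-ND2 (chrM:4470-5511), MT-ND3 (chrM:10059-10404) and MT-ND4 (chrM:10760-12137) end in incomplete stop codons, whereas MT-ND4L (chrM:10470-10766) and MT-ND5 (chrM:12337-14148) end in TAA. MT-ND6 (chrM:14149-14673) lies on the opposite strand, ends in AGG, and directly abuts MT-ND5 with a gap of 0 bases. Each of these genes is a single exon in the annotation. Guanine made up 9.5% (MT-ND2) to 12.1% (MT-ND4L) of the bases in the heavy-strand messages and 35.6% in MT-ND6. Cytosine made up 29.5% (MT-ND3) to 36.0% (MT-ND1) in the former and 7.0% in MT-ND6. MT-ND4L and MT-ND4 share 7 bases, shown in capitals in the stretch that spans their junction.
MT-ND4L to MT-ND4 junction: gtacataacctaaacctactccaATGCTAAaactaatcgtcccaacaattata

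ATAD3A, the targeted gene, had 702 and 492 counts in the KO libraries and 1802 and 1471 in the WT libraries. It fell by 1.70 ± 0.091 (SE) on the log2 scale (adjusted p = 1.58e-17), and the groups did not overlap. The libraries held 13569971 to 18943547 counts, and levels given as CPM are counts scaled to a common library size. Epithelial markers were high in all libraries, with a summed level of 3814 to 3835 CPM in KO cells and 1444 to 1450 in WT cells. KRT5 had 45495 and 40025 counts in KO cells and 6233 and 5437 in WT cells, and over the 4 libraries TP63 had 4687 to 5170 counts, CDH1 2521 to 2907 and EPCAM 3800 to 4462. Markers of fibroblasts (3 of 5 listed), leukocytes (3 of 5) and endothelium (3 of 4) summed to 1.49 to 17 CPM per cell type. Among the fibroblast markers COL1A1 had 159 to 228 counts, PDGFRB 8 to 32 and COL3A1 0 to 3.

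Of the 7 genes, 4 were higher in ATAD3A KO cells at an adjusted p under 0.05, namely MT-ND1, MT-ND2, MT-ND5 and MT-ND6, and none was lower. Among the 15104 genes tested 39.5% were called, 20.4% as higher and 19.1% as lower. The changes were small. MT-ND1 rose 1.22-fold, MT-ND2 1.15-fold, MT-ND6 1.12-fold and MT-ND5 1.09-fold, and the median log2 fold change of the 7 genes was 0.12, against -0.004 over all genes. All 7 passed the filter on low counts, with at least 4689 counts in every library. KO and WT CPM values did not overlap for 5 of the 7 genes, compared with 68.1% of all genes tested. Since the RNA came from whole cells, a change in mtDNA copies per cell and a change in RNA per mtDNA molecule cannot be told apart.

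Levels were compared between genes as RPKM, read counts divided by gene length and by the library total. RPKM and the summed marker CPM are scaled by the library total alone. The CPM of single genes and the fold changes also use TMM factors (trimmed mean of M-values). These were 0.975 and 0.977 in the KO libraries and 1.02 and 1.03 in the WT libraries. KO over WT ratios are thus lower in RPKM than in CPM for every gene.

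**Figure D1:**
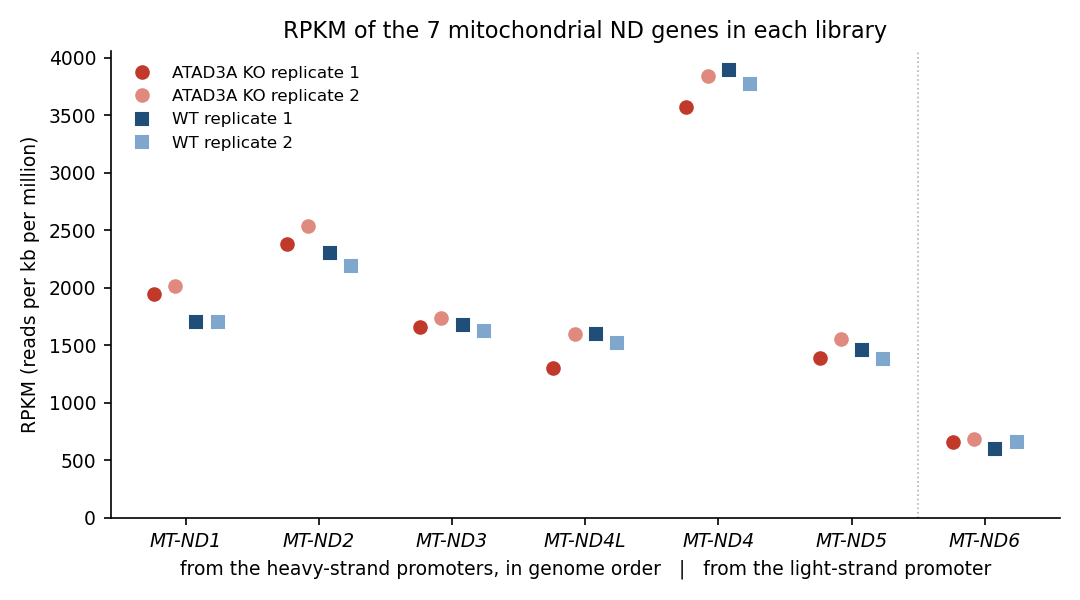
RPKM (y axis) of each mitochondrial ND gene (x axis, heavy-strand genes in genome order, then MT-ND6) in the 2 ATAD3A KO libraries (circles) and the 2 WT libraries (squares), each point a library. MT-ND4 has the highest and MT-ND6 the lowest level in each library, and KO and WT points are apart only for MT-ND1 and MT-ND2.

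MT-ND1, which lies at the junction of the membrane arm with the peripheral arm near the ubiquinone site, had an RPKM of 1949 and 2015 in the KO libraries and 1703 and 1705 in the WT libraries. Both KO libraries were above both WT libraries, and the WT values were nearly equal. In CPM the means were 1944 ± 41.5 and 1593 ± 3.17 (SD, n = 2 each). The log2 fold change was 0.29 ± 0.045 (SE, adjusted p = 2.51e-06, edgeR quasi-likelihood test). The rise passed the adjusted threshold under each alternative test, scaling, filter and left-out library that was run. It was reduced to 0.12 (adjusted p = 0.0156) by a correction for GC content and length, and its fold of 1.22 is below the smallest rise that the study's own threshold accepts.

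MT-ND2, an antiporter-like subunit of the proton-pumping arm, had an RPKM of 2383 and 2536 in KO cells and 2301 and 2191 in WT cells. The groups did not overlap, but the lowest KO and the highest WT values were close. The log2 fold change was 0.20 ± 0.045 (adjusted p = 0.000467). With limma on log2(RPKM + 1) it was 0.13 and did not pass (adjusted p = 0.222).

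MT-ND5, the largest of the mtDNA-encoded subunits and the far end of the proton-pumping arm, had an RPKM of 1391 and 1552 in KO cells and 1456 and 1381 in WT cells. The KO replicate 1 value lay between the WT values on this scale. In CPM the values were 2589 and 2882 against 2585 and 2441, so the groups were separated by 4 CPM. The log2 fold change of 0.12 ± 0.048 was just past the threshold (adjusted p = 0.0384). It was 0.06 without KO replicate 2 (adjusted p = 0.362), 0.08 without WT replicate 2 (adjusted p = 0.38) and 0.05 by library totals (adjusted p = 0.397).

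MT-ND6, a membrane-arm subunit and the light-strand gene, had an RPKM of 657 and 685 in KO cells and 601 and 658 in WT cells. WT replicate 2 was level with KO replicate 1 on this scale, and WT replicate 1 was the lowest. In CPM the values were 355 and 368 against 309 and 337, without overlap. The log2 fold change was 0.16 ± 0.056 (adjusted p = 0.019). It did not pass without WT replicate 1 (0.10, adjusted p = 0.372) or by library totals (0.09, adjusted p = 0.195), and the GC and length correction reduced it to 0.04 (adjusted p = 0.61).

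MT-ND3, a small subunit whose loop closes off the junction of the arms, was not called. Its RPKM was 1662 and 1739 in KO cells and 1672 and 1628 in WT cells, overlapping on this scale, and its log2 fold change was 0.11 (95% interval 0.01 to 0.22, adjusted p = 0.0778). The MT-ND3 and MT-ND5 fold changes were almost the same although only MT-ND5 passed, and their difference was not tested.

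MT-ND4 and MT-ND4L are carried on a shared bicistronic mRNA, and both encode membrane-arm subunits. MT-ND4 had an RPKM of 3574 and 3839 in KO cells and 3895 and 3767 in WT cells. Its log2 fold change of 0.02 had a 95% interval of -0.06 to 0.11 (adjusted p = 0.726). MT-ND4L had an RPKM of 1305 and 1595 in KO cells and 1594 and 1518 in WT cells. KO replicate 1 was the lowest and KO replicate 2 was level with WT replicate 1. The log2 fold change of MT-ND4L was -0.03 with a 95% interval of -0.16 to 0.09 (adjusted p = 0.722). This interval rests on an SE of 0.062, whereas the SE from DESeq2 was 0.147. The MT-ND4L value rested on the library chosen, being 0.11 without KO replicate 1 (adjusted p = 0.135) and -0.17 without KO replicate 2 (adjusted p = 0.0123). It was also called lower after the GC and length correction (-0.24, adjusted p = 0.00299).

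**Figure D2:**
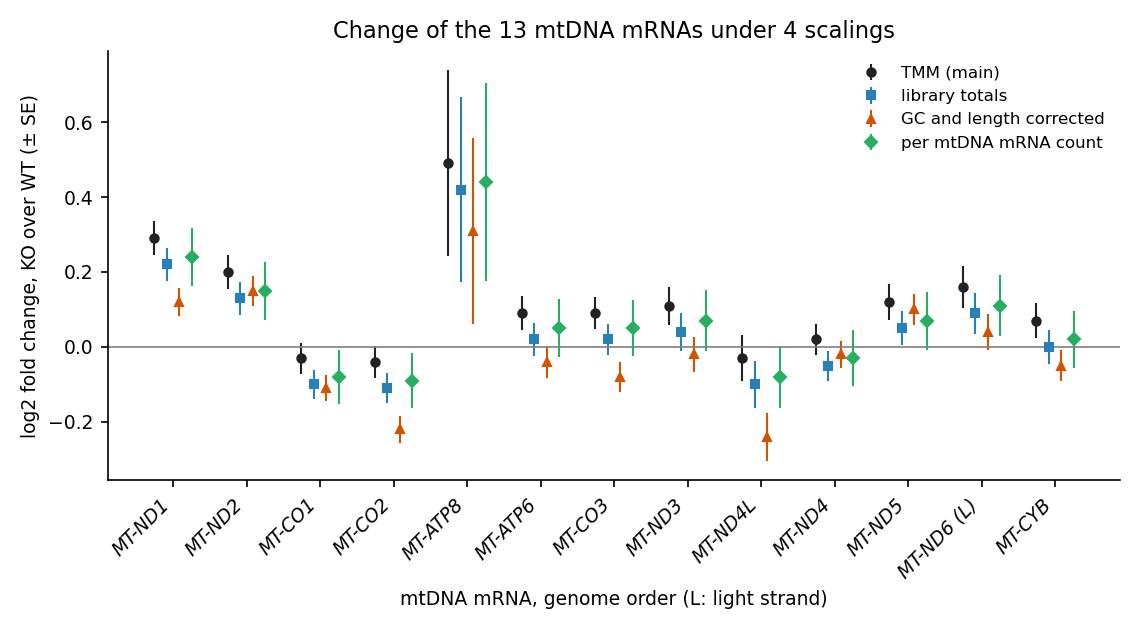
Log2 fold change of KO over WT with its SE (y axis) for the 13 mtDNA mRNAs in genome order (x axis) under 4 scalings, with n = 2 libraries per group. MT-ND1, MT-ND2, MT-ND5, MT-ND6 and MT-ATP8 are above 0 under each scaling, and MT-ND4 lies between -0.05 and 0.02.

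The scaling of the libraries bears on most of these calls. By library totals alone, 2 of the 7 genes were higher, MT-ND1 (log2 fold change 0.22, adjusted p = 0.00011) and MT-ND2 (0.13, adjusted p = 0.0157), while 16.6% of all genes were called higher. This scaling gave 2508 higher and 3615 lower genes in all, against 3074 and 2891 with TMM, and moved the median of all genes from -0.004 to -0.074. The study's threshold joins an unadjusted p under 0.05 to a minimum fold. It was applied here to the edgeR quasi-likelihood p-values, whereas the study's own calls came from a DESeq test. At this threshold 0 of the 7 genes were called, compared with 29.2% of all genes. The 7 genes had an unadjusted p under 0.05 for MT-ND1, MT-ND2, MT-ND3, MT-ND5 and MT-ND6.

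Ratios within a library do not depend on its scaling. MT-ND1 RPKM relative to MT-ND4 was 0.545 and 0.525 in the KO libraries and 0.437 and 0.453 in the WT libraries. MT-ND2 relative to MT-ND4 was 0.667 and 0.661 in KO cells against 0.591 and 0.582 in WT cells. The groups were apart in both ratios, with p = 0.333 by an exact two-sided permutation test, which is the smallest p that 2 against 2 libraries allow. MT-ND3 (0.465 and 0.453 against 0.429 and 0.432), MT-ND5 (0.389 and 0.404 against 0.374 and 0.367) and MT-ND6 (0.184 and 0.178 against 0.154 and 0.175) were also higher relative to MT-ND4 in both KO libraries. These ratios share the MT-ND4 denominator and are not independent of each other. MT-ND4 itself had a log2 fold change of 0.02, so the ratios to it largely repeat the fold changes given above. MT-ND4L relative to MT-ND4 overlapped, at 0.365 and 0.416 in KO cells and 0.409 and 0.403 in WT cells.

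The light-strand message was next set against the heavy-strand messages. MT-ND6 had 27.1 and 26.2 counts per 1000 counts of the 6 heavy-strand ND genes in KO cells, and 24.1 and 27.4 in WT cells. The WT libraries lay on either side of the KO libraries. The log2 ratio was -5.232 ± 0.035 in KO cells and -5.282 ± 0.129 in WT cells (SD, n = 2 each). The difference of 0.050 gave p = 1.000 (exact two-sided permutation test), and it was -0.042 without WT replicate 1. With MT-ND5, its neighbour on the other strand, as the denominator the difference was 0.042 (exact p = 1.000), and with the 12 heavy-strand mRNAs together it was 0.117 (exact p = 0.667). A shift between the strands was therefore not detectable against the spread of the WT libraries. Whether the counting used strand is not given, and without strand reads from MT-ND6 and from heavy-strand RNA opposite to it cannot be told apart.

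**Figure D3:**
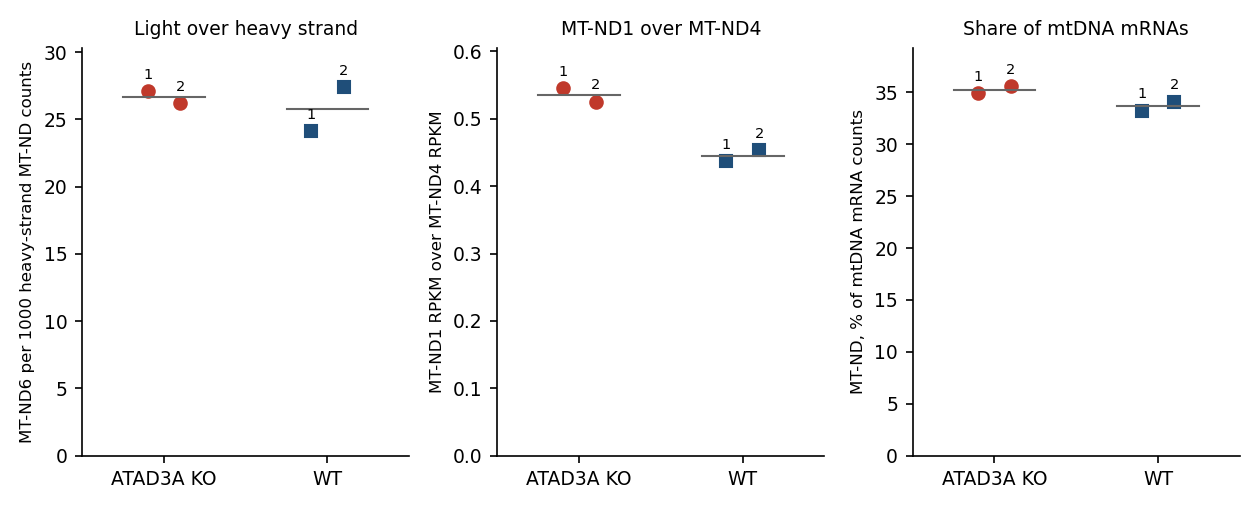
From left to right, MT-ND6 counts per 1000 heavy-strand ND counts, the MT-ND1 over MT-ND4 RPKM ratio, and the 7 ND genes as a percent of mtDNA mRNA counts (y axes) in each ATAD3A KO and WT library, numbered by replicate, with the mean of each group as a bar. The groups overlap in the left panel and are apart in the other panels.

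The 7 genes together took 1.31% and 1.41% of all counts in the KO libraries and 1.34% and 1.30% in the WT libraries, so the groups overlapped (difference 0.042 percentage points, exact two-sided permutation p = 0.667). The 13 mtDNA mRNAs together took 3.75% and 3.97% against 4.04% and 3.80%. Within the mtDNA mRNAs, the ND genes held 34.9% and 35.6% of counts in KO cells and 33.2% and 34.1% in WT cells, which did not overlap (exact p = 0.333, the smallest possible). By group means MT-ND1 held 4.91% of mtDNA mRNA counts in KO cells and 4.16% in WT cells, and MT-ND2 held 6.64% and 5.97%. MT-CO1 held 24.5% and 25.9%, and MT-CO2 14.5% and 15.4%. These shares sum to a fixed total, so that a gain in some genes lowers the others. When the mtDNA mRNA counts were used as the library size, MT-ND1 alone was called (0.24, adjusted p = 0.00821), compared with 35.2% of all genes.

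Of the 6 other mtDNA mRNAs, which encode subunits of complexes III, IV and V, 0 were called, compared with 39.5% of all genes tested. Their log2 fold changes were -0.03 for MT-CO1, -0.04 for MT-CO2, 0.09 for MT-CO3, 0.07 for MT-CYB, 0.09 for MT-ATP6 and 0.49 for MT-ATP8, the last on 64 to 108 counts. MT-CO3 was the 1 gene of these with an unadjusted p under 0.05 (0.0411, adjusted p = 0.0916, edgeR quasi-likelihood test). DESeq2 and edgeR's exact test also called 0 of them, and limma on log2(RPKM + 1) called MT-ATP8 (0.40, adjusted p = 0.0109). By library totals, MT-CO1 (-0.10) and MT-CO2 (-0.11) were called lower. After the GC and length correction MT-CO1 (-0.11) and MT-CO2 (-0.22) were also called lower. Without a filter on low counts MT-ATP6 (0.11) and MT-CO3 (0.10) were called higher. Of all genes, DESeq2 called 30.4%, edgeR's exact test 40.8% and limma on log2(RPKM + 1) 33.2%. The share was 40.5% by library totals, 34.4% after the GC and length correction and 21.1% without a filter.

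The order of the ND genes per length was nearly the same in both groups. In WT cells the mean RPKM fell from MT-ND4 (3831) through MT-ND2 (2246), MT-ND1 (1704), MT-ND3 (1650), MT-ND4L (1556) and MT-ND5 (1419) to MT-ND6 (630), and no neighbours overlapped. In KO cells MT-ND5 (1472) and MT-ND4L (1450) stood in the opposite order and overlapped, and the other neighbours did not. MT-ND4 was 6.08-fold above MT-ND6 in WT cells and 5.52-fold above it in KO cells. The MT-ND4L level was below that of MT-ND4 in each library although they share an mRNA. MT-ND4L is 297 bases long and the reads were 50 bases, and the part played by gene length and by the shared bases was not tested.

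Nuclear copies of mtDNA can take or lend reads. Of the 50-base stretches of each gene, 43.6% of MT-ND2, 22.1% of MT-ND1, 17.9% of MT-ND6, 4.76% of MT-ND5 and 3.54% of MT-ND4 also occurred in another annotated transcript, and 0% of MT-ND3 and MT-ND4L did. MTND2P28, the copy that shares stretches with MT-ND2, had 299 and 289 counts in KO cells and 359 and 209 in WT cells, or 0.636% to 0.987% of the MT-ND2 counts. MTND5P11 had 6 to 22 counts and MTND4P12 had 4 to 13. The 25 MTND pseudogenes with a row summed to 0.138% to 0.192% of the counts on the 7 genes. How reads with several matches were assigned is not given, and these counts depend on it. The part of shared reads in the MT-ND1, MT-ND2 and MT-ND6 differences was not tested.

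The nuclear-encoded partners of these subunits, from lists chosen with earlier results of these data known, are given for comparison. Of 36 tested nuclear complex I subunit genes, 18 (50%) were higher and 2 lower in KO cells, with a median log2 fold change of 0.27, compared with 20.4% and 19.1% of all genes. The GC and length correction reduced the median from 0.24 to 0.09 in core subunits and from 0.27 to 0.16 in accessory subunits. In either direction it called 3 core and 12 accessory subunits (34.4% of all genes). DESeq2 called 3 and 13 (30.4% of all genes), against 6 and 14 in the main fit (39.5% of all genes). Among the core subunits of the peripheral arm, NDUFS7 (0.62, adjusted p = 0.000286), NDUFV1 (0.50, adjusted p = 1.7e-08) and NDUFS8 (0.41, adjusted p = 7.1e-06) rose. NDUFS1, an iron-sulfur subunit of the NADH module, fell by 0.19 on the log2 scale (adjusted p = 0.0333). Of the accessory subunits, NDUFA3 (0.84), NDUFB2 (0.76) and NDUFS6 (0.70) rose most among called genes, and NDUFB4 fell by 0.27. Among 16 complex I assembly factors 5 (31.2%) were higher, against 20.4% of all genes, and 0 lower, but DESeq2 called only 1 of the 16. TMEM186 (0.65), NDUFAF8 (0.61) and NDUFAF6 (0.40) had the largest rises among the called assembly factors.

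**Figure D4:**
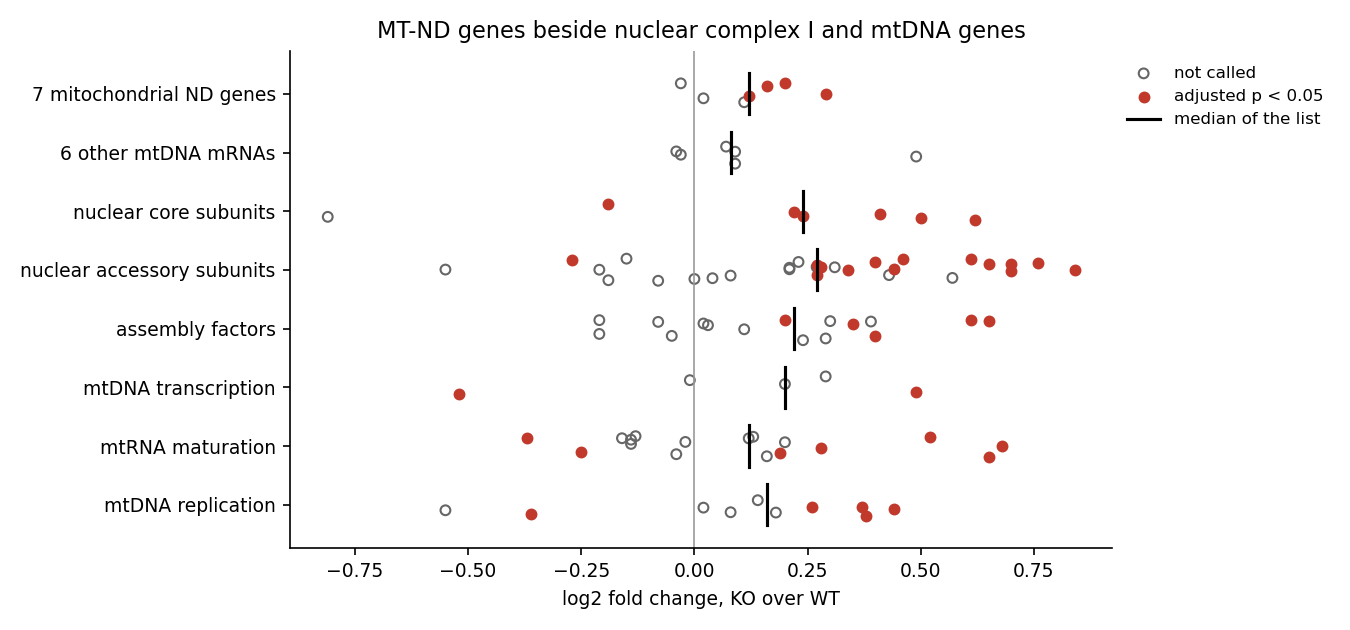
Log2 fold change of KO over WT (x axis) of each tested gene in the 7 mitochondrial ND genes, the 6 other mtDNA mRNAs and 6 nuclear lists (rows), with filled points at an adjusted p under 0.05, bars at the list medians, and vertical scatter only to separate points. The ND genes span -0.03 to 0.29. The nuclear accessory subunits span -0.55 to 0.84, with the lowest value from NDUFA13 on 9 to 16 counts per library.

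Of the 5 genes for mtDNA transcription 1 was called higher and 1 lower, and of 17 tested genes for mtRNA maturation and stability 5 (29.4%) were higher and 2 (11.8%) lower, compared with 20.4% and 19.1% of all genes. POLRMT, the mitochondrial RNA polymerase, had 90.9 and 92.7 CPM in KO cells and 59.1 and 72 in WT cells, and rose by 0.49 ± 0.082 on the log2 scale (adjusted p = 8.56e-06). TFAM, which packages mtDNA and opens its promoters, had 124 and 122 CPM in KO cells and 180 and 173 in WT cells, a fall of 0.52 ± 0.062 on the log2 scale (adjusted p = 1.22e-08). The groups did not overlap for either gene. The other 3 transcription genes were not called. Among the maturation genes, SLIRP, the partner of LRPPRC in stabilising mtDNA mRNAs, rose by a log2 fold change of 0.68, HSD17B10, a subunit of mitochondrial RNase P, by 0.65 and FASTK, which is known to stabilise MT-ND6 mRNA, by 0.52. SUPV3L1, the helicase of the mtRNA degradosome, fell by 0.37, and FASTKD2, an mtRNA-binding protein, fell by 0.25. Of 10 mtDNA replication genes 4 (40%) were higher, including TWNK (0.44), the replicative helicase, TOP1MT (0.38) and DGUOK (0.37), and 1 was lower, RRM2B (-0.36).

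The profile of each strand over the 4 libraries was also set beside those of 6146 nuclear genes of at least moderate expression. Among the nuclear genes nearest to MT-ND6 were ANKRD13C, SHMT1, SERINC1 and TIA1, at root mean square distances of 0.009 to 0.015 in log2 CPM. Those nearest to the mean of the 6 heavy-strand genes were MTIF2, CDC42BPB, PPP6R2, SASH1 and MAFG, at 0.008 to 0.012. The median distance over all candidates was 0.151 and 0.147, respectively, and 224 and 302 genes lay within 0.05, so 4 libraries separate such profiles poorly.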

How the data were processed

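RNA was extracted with TRIzol from HN12 cells, and 2 ATAD3A KO and 2 WT libraries were sequenced as 50-base reads. The authors deposited raw read counts per gene for 26726 Ensembl identifiers, and RPKM values that equal those counts divided by a gene length and the library total. The submitters' processing notes name CASAVA, STAR 2.5, HTSeq, edgeR 3.16.5, DESeq2 version 2 and hg19, without saying which step used which. Strand use and the treatment of reads with several matches are not given in the sources used here. The deposited files hold no coordinates, so positions and sequences were looked up under the Ensembl identifiers in GENCODE 29 (GRCh38), and the lengths implied by the RPKM values equalled the annotated lengths for the 7 genes. Mitochondrial rRNA and tRNA genes were not analysed here. NDUFAF8 is listed under an older symbol and was matched by that symbol.

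The counts were compared with edgeR 4.0.16 in R 4.3.3 (filterByExpr, which left 15104 genes, TMM, glmQLFit and glmQLFTest, no replicate term, Benjamini-Hochberg adjustment over all tested genes, threshold 0.05). Errors are SE of the log2 fold change or SD over 2 libraries, and 95% intervals use the t quantile at the fit's degrees of freedom. The study describes the duplicates as independent cultures. With 13569971 to 18943547 counts per library, sampling error is small for the ND genes. The SE come from a fit that shares information on spread over all tested genes. They are therefore not the spread of each gene between its own replicates. The common biological coefficient of variation over all tested genes was 5.88%, which is not the spread of the ND genes. The edgeR SE of the ND genes ran from 0.042 (MT-ND4) to 0.062 (MT-ND4L), and the DESeq2 SE from 0.044 (MT-ND1) to 0.147 (MT-ND4L). Alternatives were DESeq2 1.42.0, limma 3.58.1 on log2(RPKM + 1) and log2(RPKM + 0.1), edgeR's exact test, other scalings and filters, a replicate block, the study's threshold and leaving out each library. The GC and length correction, alone and with the block, and the library size set to mtDNA mRNA counts were chosen after seeing the data. The test was checked on simulated counts. Ratios were compared by exact permutation tests over the 4 libraries.

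The 7 genes and all lists were chosen with earlier results of these data known. Besides the 7 genes, ATAD3A and the other mtDNA mRNAs, the text names from each nuclear list the 3 called genes with the largest rise and the 3 with the largest fall whose log2 CPM averaged 1 or more, the 3 MTND pseudogenes with most counts, and for each strand the 5 nuclear genes nearest in profile whose log2 CPM averaged 5 or more, of which 1 is not reported here.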

Additional observations from a re-analysis of the deposited data

How the results depend on the processing

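MT-ND1 was called higher under each alternative apart from the study's threshold, at which 0 of the 7 genes were called. The MT-ND5 call depended on the scaling, the test, the GC and length correction and the library left out. The MT-ND6 call depended on the scaling, the GC and length correction and the library left out. DESeq2 and edgeR's exact test also called MT-ND6. Limma did not, but it used RPKM, which is scaled by library totals. The causes were not tested. By library totals 2 genes were called, with MT-ND4 at -0.05, MT-ND5 at 0.05 and MT-ND6 at 0.09, and 2 of the other mtDNA mRNAs were called. With limma on log2(RPKM + 1) or log2(RPKM + 0.1), 1 gene was called, with MT-ND2 at 0.13, MT-ND4 at -0.05, MT-ND5 at 0.05 and MT-ND6 at 0.09, beside 1 other mtDNA mRNA and 3 assembly factors. After the GC and length correction 2 genes were called higher and 1 lower, with MT-ND3 at -0.02, MT-ND4 at -0.02, MT-ND4L at -0.24, MT-ND5 at 0.10 and MT-ND6 at 0.04, beside 2 other mtDNA mRNAs, 3 nuclear core subunits and 2 replication genes. With the library size set to mtDNA mRNA counts 1 gene was called, with MT-ND2 at 0.15, MT-ND4 at -0.03, MT-ND5 at 0.07 and MT-ND6 at 0.11, beside 2 assembly factors. DESeq2 and edgeR's exact test each gave MT-ND5 0.12 without calling it, and DESeq2 called 3 core subunits and 1 assembly factor. Without a filter 2 other mtDNA mRNAs were called, and the study's threshold called 3 core subunits and 3 maturation genes. Of all genes, 40.5% were called by library totals, 33.2% and 33.4% by the 2 limma fits and 34.4% after the GC and length correction. The share was 35.2% with the mtDNA library size, 30.4% with DESeq2 and 40.8% with edgeR's exact test. It was 21.1% without a filter and 29.2% at the study's threshold.

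Leaving out each library in turn gave log2 fold changes of 0.09 to 0.15 for MT-ND3, -0.02 to 0.08 for MT-ND4, -0.17 to 0.11 for MT-ND4L, 0.06 to 0.20 for MT-ND5 and 0.10 to 0.22 for MT-ND6. It gave 3 to 5 ND genes called, 0 to 1 ND genes called lower, 0 to 3 other mtDNA mRNAs, 3 to 6 core subunits and 3 to 7 assembly factors. The MT-ND6 log2 ratio difference ranged from -0.042 to 0.141, and the difference in the share of counts from -0.008 to 0.092 percentage points. With 1 library left in a group, its spread is assumed to be that of the other group. The counts of calls in these fits rest on that assumption, and whether they exceed the share of all genes called was not tested.

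Replicate numbers did not pair the libraries, since same-numbered deviations had a correlation of -0.06 over 11161 genes. The replicate block called 5820 genes in place of 5965 and the same 4 ND genes (MT-ND1 0.29, MT-ND2 0.20, MT-ND5 0.12, MT-ND6 0.16), and left the ratio difference at 0.050 and the share difference at 0.042. With the block, the GC and length correction called 3 ND genes higher and MT-ND4L lower at -0.25, while 34.2% of all genes were called. MT-ND3 was then at -0.02, MT-ND4 at -0.02 and MT-ND6 at 0.04. Also called were 2 other mtDNA mRNAs, 3 core subunits and 3 replication genes.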
